A study of Mus musculus with 12 samples.

Results

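The genes examined here are 10 regulators of the passage from G1 into S phase: the D cyclins Ccnd2 and Ccnd3, their kinase partners Cdk4 and Cdk6, the kinase inhibitors Cdkn1a and Cdkn1b, the pocket protein Rb1, the transcription factor E2f1 and the E cyclins Ccne1 and Ccne2. They were picked by Ensembl ID from the 22520 gene IDs of ribosome footprint tables, and each ID was found once. The readout is ribosome profiling, which counts the mRNA fragments that ribosomes shield from nuclease, so a level joins the amount of an mRNA with how heavily it is translated. In these bulk samples the 2 cannot be told apart, nor can fewer cells of a kind be told from less RNA per cell.

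In G1, D cyclins bind Cdk4 or Cdk6, and these kinases begin to phosphorylate the Rb1 protein, which holds E2F factors in check. Released E2F raises transcription of cyclin E and other S phase genes, and cyclin E with Cdk2 completes the phosphorylation of Rb1. Cdkn1a (p21) and Cdkn1b (p27) bind and restrain cyclin-Cdk complexes, and p53 raises transcription of Cdkn1a. Of the D cyclins, B cells use mainly Ccnd2 and Ccnd3, and Myc raises transcription of Cdk4.

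All libraries came from 1 mouse B cell lymphoma line, labelled 19PP and grown as its reporter-negative subline 19DN. The line arose in a Rag2-/-γC-/- mouse given bone marrow of the genotype Cγ1-Cre; Myc/P110*flSTOP, and its GFP and hCD2 reporters had been deleted with Flp, so every group shares the Cre-activated Myc and P110* alleles. The groups were cells with RPL12 S38D, RPL12 S38A or WT RPL12, a protein of the large ribosomal subunit in which serine 38 was replaced by aspartate (S38D) or alanine (S38A). Each genotype was taken in a mitotic state, after 8 hr in 100 ng/mL nocodazole, washing and 10 min in fresh medium, and in an asynchronous state. Nocodazole blocks spindle assembly, and drug and state cannot be told apart because every mitotic library and no asynchronous one carries the drug in its label. With 2 libraries in each of the 6 groups there were 12 in all. The labels name neither separate cultures within a group nor the number of clones behind a genotype. The p-values therefore rest on a spread between libraries that may be technical.

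Promoter windows of 250 bases before to 50 bases after a start site were available from RefSeq (GRCm38.p6) for 7 of the 10 genes, in 9 windows. Stretches of 2 of them are shown because they hold motifs of regulators named above: CACGTG, which Myc binds and for which the line carries an activated Myc allele, and the p53 consensus. Capitals mark these motifs, searched on both strands, and each line runs 5′ to 3′ on the plus strand. The Cdk4 stretch is chr10:127063345-127063534, the 190 bases just before the start site. The Cdkn1a stretch is chr17:29090908-29090967, which lies 71 to 12 bases before the first of its start sites.
Cdk4: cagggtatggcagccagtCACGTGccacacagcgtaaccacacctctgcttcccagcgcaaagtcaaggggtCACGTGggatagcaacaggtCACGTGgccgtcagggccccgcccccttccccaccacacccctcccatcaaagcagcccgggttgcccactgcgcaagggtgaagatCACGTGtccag
Cdkn1a: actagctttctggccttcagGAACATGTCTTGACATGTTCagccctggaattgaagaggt

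The Cdk4 window holds CACGTG 4 times, and 8 of the 32851 windows of the table (0.0244%) hold it at least 4 times, and the Cdk6 window holds it once, as 7.15% of windows hold at least 1. The capitals in Cdkn1a are a match to the p53 consensus of 20 bases with 1 difference, and 0.0883% of windows have such a match at that allowance. The window of the other Cdkn1a start site holds no such match. These matches are descriptions of sequence, and binding was not measured.

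Libraries held 258354 to 505500 reads in coding sequence, and 6692 genes passed the filter on low counts. The filter asks for a minimum count of 10, which is 28.2 counts per 1e6 coding reads (CPM) at the median depth, in 2 libraries. Levels are given as CPM, with the reads of all tested genes as the total, scaled by TMM. Of the 10 regulators, 8 passed and Ccnd2 and Cdkn1a did not. Cdk4 had 56 to 108 reads in a library, Ccne2 10 to 40, Ccnd3 12 to 38 and Ccne1 7 to 27. Cdk6, Cdkn1b and Rb1 each passed the filter on 2 libraries, and E2f1 on 3, with 1 to 18 reads in any library of these 4 genes. Cdkn1b passed on WT asynchronous replicate 2 and S38A mitotic replicate 2, and Rb1 on the 2 WT asynchronous libraries. Cdk6 passed on WT and S38D asynchronous replicate 1. E2f1 passed on S38A asynchronous replicate 1, WT mitotic replicate 1 and S38D mitotic replicate 2. Each of these 4 genes was thus tested because of the libraries in which it was high. Ccnd2 had 0 to 6 reads and Cdkn1a 0 to 5. Precision is therefore good for Cdk4 and poor for the genes of few reads, and intervals on counts cover counting error only. Coding length was not used here, so levels are compared between libraries for 1 gene. Genes were ranked by CPM, uncorrected for length, only to choose Cdk4 for the search for like patterns.

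**Figure D1:**
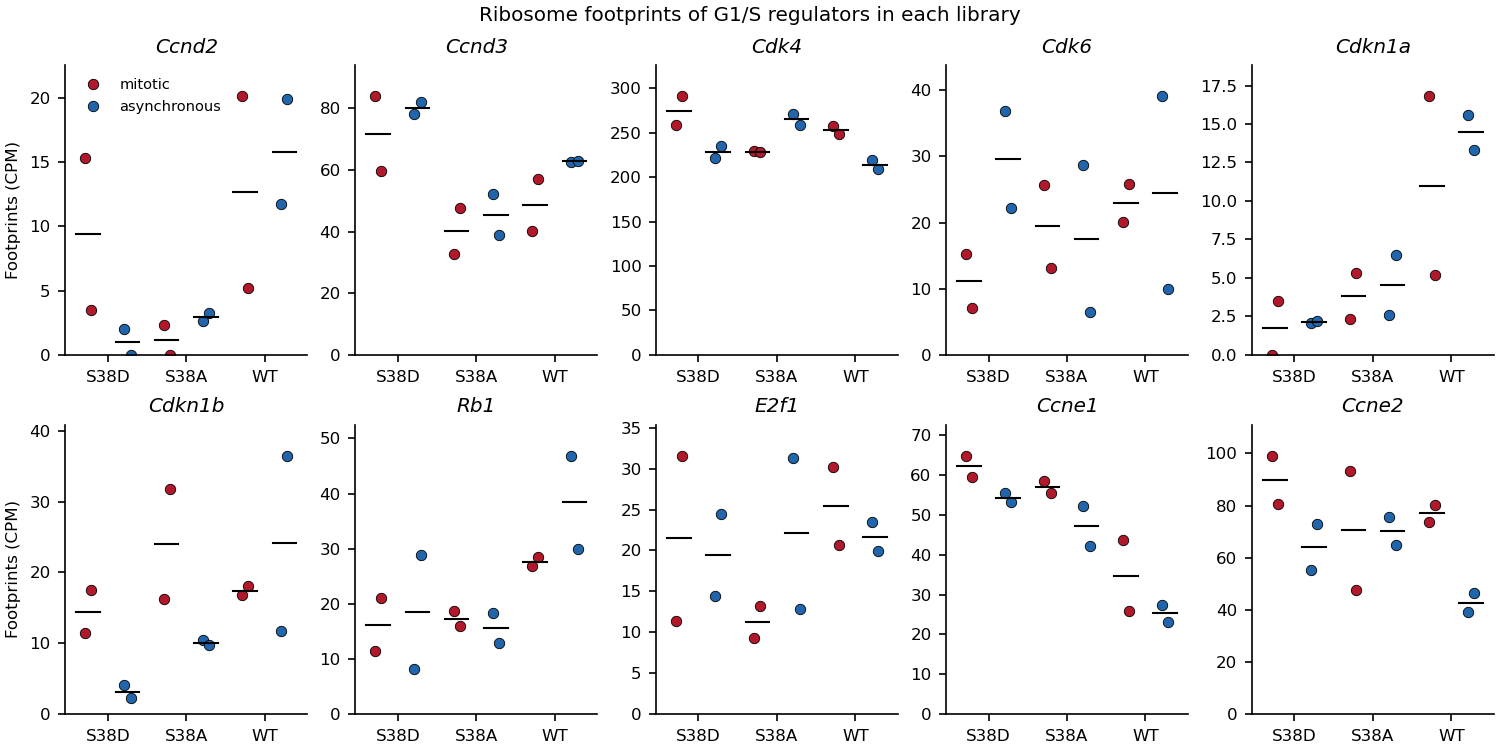
Footprint level of each regulator (vertical axis, CPM, linear and starting at 0, scaled per gene) in the 12 libraries, by genotype and state (mitotic in red, left of asynchronous in blue). Points are libraries and bars are means of 2. Every mutant library of Ccne1 lies above the WT libraries of its state, Ccnd3 is higher in all S38D than in all S38A libraries, and Cdk4 stays between 209 and 291 CPM throughout.

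The first comparison asks whether footprints of G1/S regulators differed between mitotic and asynchronous cells. Averaged over the genotypes, 0 of the 8 tested regulators passed the threshold (edgeR quasi-likelihood test, Benjamini-Hochberg adjusted p under 0.05), while 38.9% of all genes tested did. At an unadjusted p under 0.05 there was 1, Ccne2, against 47% of all genes tested. The median log2 change of the 8 was -0.04, against -0.015 for all genes tested, with 4 positive and 4 negative. Within S38D, S38A and WT cells the count was 0 of 8 each, against 21.4%, 18.6% and 18.4% of all genes. At an unadjusted p under 0.05 it was 2, 0 and 1, against 32%, 31% and 30.2% of all genes. DESeq2 gave 0 in the same 4 comparisons, with no adjusted p for 6 regulators in S38D, 4 in S38A and 6 in WT cells.

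Cdk4 (ENSMUSG00000006728.12, chr10:127063535-127067288 in GRCm38.p6, as are all positions), the kinase that acts with D cyclins, had the narrowest spread of the 10, with a coefficient of variation of 10% over the libraries. That spread was not corrected for counting error, and Cdk4 also had the most reads of the 10, 1025 in total. It had 259 and 291 CPM in mitotic and 222 and 235 CPM in asynchronous S38D libraries. In S38A cells it had 229 and 228 CPM in mitotic, against 271 and 259 CPM in asynchronous libraries, and in WT cells 258 and 249 CPM against 219 and 209 CPM. Overlap between groups of 2 libraries was not counted over all genes, so it is given as a description throughout. For Cdk4 the 2 states did not overlap in any genotype, with the mitotic libraries higher in S38D and WT cells and lower in S38A cells. None of these passed: the log2 change was 0.27 ± 0.18 in S38D, -0.22 ± 0.18 in S38A and 0.24 ± 0.20 in WT cells (SE, edgeR adjusted p = 0.307, 0.436 and 0.425). Averaged, it was 0.09 ± 0.12 with a 95% interval (1.96 SE either way) of -0.13 to 0.32. The mitotic change of S38D minus that of S38A was 0.49 ± 0.26 (SE, edgeR adjusted p = 0.501).

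Cyclin E2 (Ccne2, ENSMUSG00000028212.16, chr4:11190433-11204779), which activates Cdk2 at the start of S phase, had the lowest adjusted p of the 8. Ccne2 had 99.2 and 80.7 CPM in mitotic and 55.4 and 73.1 CPM in asynchronous S38D libraries. In S38A cells the mitotic libraries lay far apart, at 93.4 and 47.7 CPM, and enclosed the asynchronous ones at 75.6 and 64.7 CPM. In WT cells the mitotic libraries had 73.8 and 80.3 CPM, against 39.1 and 46.4 CPM in asynchronous ones. The states did not overlap in S38D and WT cells and overlapped in S38A cells. The averaged log2 change was 0.41 ± 0.19 (SE, edgeR adjusted p = 0.0781), and the values by genotype were 0.48 ± 0.30 in S38D, 0.02 ± 0.30 in S38A and 0.84 ± 0.36 in WT cells (SE, adjusted p = 0.263, 0.971 and 0.0923). Without S38A mitotic replicate 2 the averaged change passed, at 0.56 (adjusted p = 0.0132), and likewise without S38A asynchronous replicate 1, at 0.51 (adjusted p = 0.0440).

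Ccne1 (ENSMUSG00000002068.16, chr7:38097984-38107490), the other E cyclin, gave an averaged log2 change of 0.26 ± 0.21 (SE, edgeR adjusted p = 0.33). Its mitotic means were 62.3 ± 3.70, 57.0 ± 1.94 and 34.8 ± 12.5 CPM in S38D, S38A and WT cells. The asynchronous means were 54.3 ± 1.58, 47.1 ± 7.15 and 25.3 ± 2.93 CPM in the same order (SD, n = 2 each). The mean was higher in the mitotic state of each genotype, by less than the test could call.

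Among the inhibitors, Cdkn1b (ENSMUSG00000003031.14, chr6:134920401-134925525) had 11.4 and 17.5 CPM in mitotic S38D libraries, against 4.10 and 2.22 CPM in asynchronous ones, which were its lowest levels in the series. It had 16.3 and 31.8 CPM in mitotic and 10.4 and 9.70 CPM in asynchronous S38A libraries. In WT cells it had 16.8 and 18.1 CPM in mitotic libraries, between the 11.7 and 36.5 CPM of the asynchronous ones. The mitotic libraries were thus above the asynchronous ones in both mutants, while in WT cells they overlapped. Cdkn1b passed the filter through WT asynchronous replicate 2 and S38A mitotic replicate 2. Its changes in those genotypes and averaged over genotypes are therefore descriptions. The log2 changes were 2.08 ± 0.94 in S38D, 1.20 ± 0.67 in S38A and -0.50 ± 0.63 in WT cells (SE, edgeR adjusted p = 0.111, 0.214 and 0.645), and 0.64 ± 0.42 averaged (adjusted p = 0.234). One library weighs on the average: without WT asynchronous replicate 2 it was 1.30 (adjusted p = 0.0263). Over all genotypes Cdkn1b had 39 reads in mitotic and 24 in asynchronous libraries.

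Cdk6 (ENSMUSG00000040274.11, chr5:3341004-3531008), the other partner of D cyclins, averaged 11.1 ± 5.83 CPM in mitotic and 29.5 ± 10.5 CPM in asynchronous S38D cells (SD, n = 2 each), a log2 change of -1.41 ± 0.66 (SE, edgeR adjusted p = 0.123). Cdk6 passed the filter through 2 asynchronous libraries, 1 of S38D and 1 of WT cells, so its changes in these genotypes are descriptions. In S38A cells it averaged 19.5 ± 8.80 and 17.6 ± 15.7 CPM, and in WT cells 23.0 ± 4.09 and 24.5 ± 20.6 CPM, mitotic before asynchronous (SD, n = 2 each). The log2 changes there were 0.08 ± 0.61 in S38A and 0.00 ± 0.62 in WT cells, with the sign in WT cells turning between settings (SE, adjusted p = 0.944 and 0.998). Asynchronous replicates of S38A and WT differed widely, from 28.7 and 39.1 CPM in the first of each pair to 6.47 and 9.95 CPM in the second. Averaged over genotypes, the log2 value for mitotic minus asynchronous cells was -0.39 ± 0.36 for Cdk6, -0.23 ± 0.19 for Ccnd3, -0.19 ± 0.33 for Rb1 and -0.17 ± 0.35 for E2f1, none past the threshold (SE, edgeR adjusted p = 0.403, 0.361, 0.677 and 0.728). Cdk6, Rb1 and E2f1 passed the filter through few libraries in which they were high, so their averages are descriptions.

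For the regulators of fewest reads, the counting interval of the ratio between states spanned 1. Ccnd2 had 14 reads in mitotic and 12 in asynchronous libraries, a ratio of 1.26 per coding read with an exact 95% counting interval of 0.539 to 2.97. Cdkn1a had 11 and 13 reads, a ratio of 0.911 with an interval of 0.369 to 2.20.

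**Figure D2:**
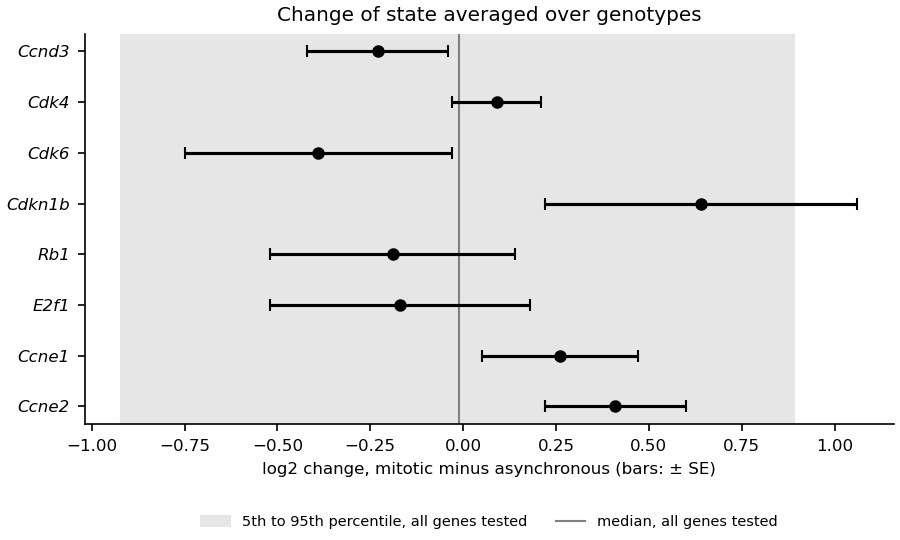
Log2 change, mitotic minus asynchronous, averaged over the genotypes (horizontal axis) for the 8 tested regulators, as points with bars of 1 SE. The grey band spans the 5th to 95th percentile of all 6692 genes tested, -0.92 to 0.89, and every point lies inside it.

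The next question was whether cells with a substitution at serine 38 had other levels of these regulators than WT cells in the same state. In asynchronous cells 1 of 8 passed between S38D and WT, against 3.33% of all genes, with Cdkn1b lower in S38D. Cdkn1b had entered the test partly through WT asynchronous replicate 2, where it was high. Between S38A and WT 0 of 8 passed (9.32% of all genes), as between S38D and S38A (8.71%). At an unadjusted p under 0.05 the counts were 3, 2 and 1, in the same order, against 15.2%, 21% and 21.5% of all genes. The first count includes Cdkn1b and Rb1 and the second Rb1, which passed the filter wholly or partly through asynchronous WT libraries. In mitotic cells 0 of 8 passed in each comparison, against 1.82% for S38D and WT, 13.2% for S38A and WT and 12.9% for S38D and S38A. In each, 1 of 8 had an unadjusted p under 0.05, against 11.9%, 25.7% and 25.4% of all genes. DESeq2 gave 0 in the mitotic comparisons, with no adjusted p for 7, 6 and 7 regulators in that order. It gave 0 in the asynchronous comparisons of S38A with WT and of S38D with S38A, with no adjusted p for 5 and 7. Comparisons of the 2 mutants with WT share the WT libraries.

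Cdkn1b had 2 and 1 reads in asynchronous S38D libraries, or 4.10 and 2.22 CPM, against 3 and 11 reads, or 11.7 and 36.5 CPM, in asynchronous WT libraries. Its log2 difference was -2.84 ± 0.83 (SE, edgeR adjusted p = 0.0359). Cdkn1b passed the filter partly through WT asynchronous replicate 2. Its differences from WT in this state and over both states are therefore descriptions. From the summed reads the ratio of S38D to WT was 0.124, with an exact 95% counting interval of 0.0228 to 0.444. The call rests on few reads: without WT asynchronous replicate 2 the difference was -1.77 (adjusted p = 0.651), and it also missed the threshold without S38D asynchronous replicate 1 or 2 (adjusted p = 0.0853 and 0.173), with only these 2 groups in the fit (0.0909), while DESeq2 gave no adjusted p. S38A minus WT in asynchronous cells was -1.28 ± 0.71 (SE, edgeR adjusted p = 0.298), and -0.24 without WT asynchronous replicate 2 (adjusted p = 0.948). In mitotic cells the differences from WT were -0.26 ± 0.72 for S38D and 0.42 ± 0.59 for S38A (SE, adjusted p = 0.931 and 0.706).

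Since the genotype differences of some regulators had the same sign in both states, genotypes were also compared over both states together, with state as a term of the model. This comparison was added after the values had been seen. Of the 8 regulators, Ccne1 was higher in S38D than in WT cells (4.77% of all genes called) and in S38A than in WT cells (18% called). Ccnd3 was higher in S38D than in S38A cells (17.9% called). The other 7 missed the threshold in each comparison.

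Ccne1, cyclin E1, had 64.9 and 59.6 CPM in mitotic and 55.4 and 53.2 CPM in asynchronous S38D libraries, and 58.4 and 55.6 CPM in mitotic and 52.2 and 42.1 CPM in asynchronous S38A libraries. WT libraries had 43.6 and 25.9 CPM in the mitotic and 27.4 and 23.2 CPM in the asynchronous state. Within each state every mutant library was above both WT libraries. Over both states the log2 difference from WT was 0.98 ± 0.28 for S38D, a 1.97-fold higher level, and 0.82 ± 0.28 for S38A, 1.76-fold higher (SE, edgeR adjusted p = 0.024 and 0.031). The single states gave 0.88 ± 0.39 and 1.10 ± 0.41 for S38D in mitotic and asynchronous cells (SE, adjusted p = 0.319 and 0.132). For S38A they gave 0.75 ± 0.36 and 0.91 ± 0.44 (SE, adjusted p = 0.175 and 0.214), so neither state passed alone. Between the mutants the difference was 0.16 ± 0.23, with a 95% interval of -0.30 to 0.62 (SE, adjusted p = 0.688). The calls were lost with DESeq2 (adjusted p = 0.127 for S38D and 0.133 for S38A). Without 1 library the S38D value was 0.85 to 1.16 and lost its call without WT asynchronous or mitotic replicate 2 (edgeR adjusted p = 0.0705 and 0.104), and the S38A value was 0.66 to 1.01 and kept its call only without WT mitotic replicate 1 or S38A asynchronous replicate 2.

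Ccne2 differed less by genotype. Over both states its log2 difference from WT was 0.33 ± 0.24 for S38D and 0.22 ± 0.23 for S38A (SE, edgeR adjusted p = 0.52 and 0.577). In the asynchronous state alone its WT libraries, at 39.1 and 46.4 CPM, lay below all 4 mutant libraries, which had 55.4 to 75.6 CPM. The differences there were 0.57 ± 0.35 for S38D and 0.71 ± 0.36 for S38A (SE, edgeR adjusted p = 0.481 and 0.252), and neither passed. In mitotic cells they were 0.21 ± 0.30 and -0.11 ± 0.29 (SE, edgeR adjusted p = 0.855 and 0.861).

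Ccnd3 (ENSMUSG00000034165.16, chr17:47505051-47599689), the D cyclin with reads enough to test, had 83.9 and 59.6 CPM in mitotic and 78.0 and 82.0 CPM in asynchronous S38D libraries. S38A libraries had 32.7 and 47.7 CPM in the mitotic and 52.2 and 38.8 CPM in the asynchronous state. WT libraries overlapped within a state only with mitotic S38A libraries, with 40.2 and 57.0 CPM in mitotic and 62.5 and 63.0 CPM in asynchronous cells. All 4 S38D libraries were above all 4 S38A libraries. S38D exceeded S38A over both states by 0.80 ± 0.23 on the log2 scale, or 1.75-fold (SE, edgeR adjusted p = 0.00903). This call held under the 7 other settings tried, DESeq2 among them (adjusted p = 0.0415), and in all 8 fits without 1 library, at 0.72 to 0.93 (adjusted p = 0.00755 to 0.0398). The mitotic state alone gave 0.84 ± 0.35 and the asynchronous state alone 0.79 ± 0.31 (SE, adjusted p = 0.107 and 0.0982). Against WT, S38D differed by 0.43 ± 0.23 and S38A by -0.38 ± 0.25 (SE, adjusted p = 0.34 and 0.324), and neither passed.

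**Figure D3:**
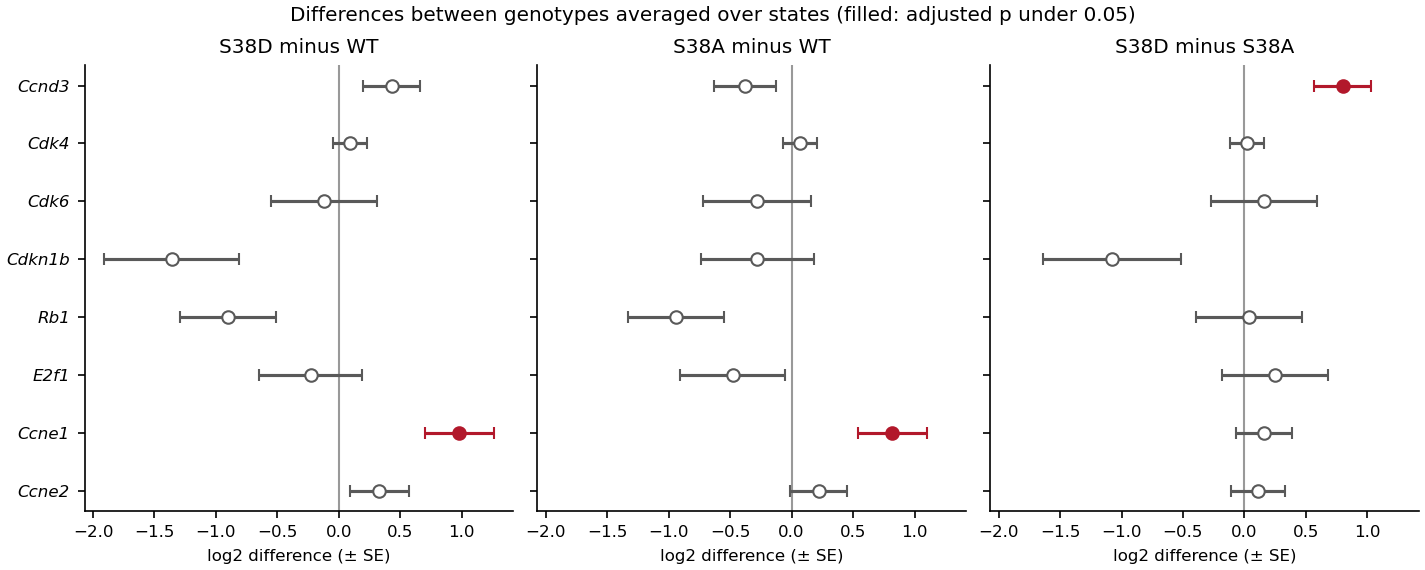
Log2 differences between genotypes over both states (horizontal axis) for the 8 tested regulators, as points with bars of 1 SE, with filled red points where the adjusted p was under 0.05. Ccne1 is filled at 0.98 for S38D minus WT and 0.82 for S38A minus WT, and Ccnd3 at 0.80 for S38D minus S38A.

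Rb1 (ENSMUSG00000022105.6, chr14:73192858-73325951), the brake on E2F, had 11.4 and 21.0 CPM in mitotic and 8.21 and 28.8 CPM in asynchronous S38D libraries. S38A libraries had 18.7 and 15.9 CPM in the mitotic and 18.3 and 12.9 CPM in the asynchronous state, against 26.8 and 28.5 CPM in mitotic and 46.9 and 29.9 CPM in asynchronous WT libraries. Within each state both WT libraries were above all mutant libraries. Rb1 passed the filter only through the 2 asynchronous WT libraries. Its differences from WT in asynchronous cells and over both states are therefore descriptions. The difference from WT over both states was -0.90 ± 0.39 for S38D and -0.94 ± 0.39 for S38A on the log2 scale (SE, edgeR adjusted p = 0.203 and 0.0869), and neither passed. In asynchronous cells it was -1.04 ± 0.52 for S38D and -1.23 ± 0.57 for S38A (SE, adjusted p = 0.32 and 0.188). The S38D value was -0.39 without S38D asynchronous replicate 1 and -2.17 without S38D asynchronous replicate 2, and over both states -0.54 and -1.32 (edgeR adjusted p = 0.812, 0.0941, 0.538 and 0.101). In mitotic cells it was -0.74 ± 0.62 and -0.67 ± 0.55 (SE, adjusted p = 0.712 and 0.485), with the S38D value at -0.35 and -1.23 without S38D mitotic replicate 1 or 2.

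E2f1 (ENSMUSG00000027490.17, chr2:154559400-154569892), the factor that Rb1 binds, had its lowest mean in mitotic S38A cells. Its group means in mitotic cells were 21.5 ± 14.2, 11.3 ± 2.76 and 25.5 ± 6.68 CPM in S38D, S38A and WT libraries. In asynchronous cells they were 19.4 ± 7.07, 22.1 ± 13.0 and 21.7 ± 2.51 CPM (SD, n = 2 each). The mitotic S38A libraries, at 9.34 and 13.2 CPM, were below the mitotic WT libraries, at 30.2 and 20.7 CPM, by -1.13 ± 0.62 on the log2 scale (SE, edgeR adjusted p = 0.249). E2f1 passed the filter partly through WT mitotic replicate 1, so this difference and those over both states are descriptions. Over both states E2f1 differed from WT by -0.23 ± 0.42 in S38D and -0.48 ± 0.43 in S38A cells (SE, edgeR adjusted p = 0.845 and 0.486). Cdk4 differed from WT by 0.09 ± 0.14 in S38D and 0.07 ± 0.14 in S38A cells, with 95% intervals of -0.19 to 0.37 and -0.21 to 0.35 (SE, edgeR adjusted p = 0.815 and 0.785). Cdk6 gave -0.12 ± 0.43 and -0.28 ± 0.44, with wider intervals of -0.96 to 0.72 and -1.14 to 0.58 (SE, adjusted p = 0.932 and 0.728). These Cdk6 values are also descriptions, since the gene passed the filter partly through WT asynchronous replicate 1.

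Over both states Cdkn1b differed from WT by -1.36 ± 0.55 in S38D and -0.28 ± 0.46 in S38A cells (SE, edgeR adjusted p = 0.162 and 0.742). Without WT asynchronous replicate 2 these were -0.64 and 0.32 (adjusted p = 0.681 and 0.739). The mitotic change of S38D minus that of WT, 2.58 ± 1.13 on the log2 scale, did not pass (SE, edgeR adjusted p = 0.719), and was 1.54 without that library. This value is likewise a description, since Cdkn1b passed the filter partly through WT asynchronous replicate 2.

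Ccnd2 (ENSMUSG00000000184.12, chr6:127125162-127152188), a D cyclin, and Cdkn1a (ENSMUSG00000023067.13, chr17:29090979-29100722), the inhibitor p21, had fewer reads in mutant than in WT libraries. Ccnd2 had 4 and 1 reads in mitotic and 1 and 0 reads in asynchronous S38D libraries, and 1 and 0 reads in mitotic and 1 and 1 in asynchronous S38A libraries. WT libraries had 6 and 2 reads in the mitotic and 3 and 6 in the asynchronous state. The ratio to WT per coding read over both states was 0.287 for S38D, with an exact 95% counting interval of 0.0926 to 0.763, and 0.143 for S38A, with an interval of 0.0269 to 0.495. By state the S38D ratio was 0.757 in mitotic cells, with an interval of 0.195 to 2.63 that spans 1, and 0.0642 in asynchronous cells, with an interval of 0.00146 to 0.463. One S38D mitotic library, with 4 reads, had more than 2 of the WT libraries.

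Cdkn1a had 0 and 1 reads in mitotic and 1 and 1 in asynchronous S38D libraries, and 1 and 2 reads in each state of S38A. WT libraries had 5 and 2 reads in the mitotic and 4 and 4 in the asynchronous state. The ratio to WT was 0.163 for S38D, with a counting interval of 0.0302 to 0.575, and 0.324 for S38A, with an interval of 0.103 to 0.884. By state the intervals spanned 1 in mitotic S38D cells (0.00384 to 1.35) and in mitotic and asynchronous S38A cells (0.0599 to 1.57 and 0.0499 to 1.22). No mutant library had more reads than the lowest WT library, though S38A mitotic replicate 2 and S38A asynchronous replicate 2 equalled its 2 reads and, at 5.30 and 6.47 CPM, were slightly above its 5.18 CPM.

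Without the filter on low counts both genes could be tested, among 11680 genes. Over both states Ccnd2 was lower in S38A than in WT cells, by -2.56 ± 0.81 on the log2 scale (SE, edgeR adjusted p = 0.0215), where 9.81% of those genes were called. In S38D, where 3.04% were called, its difference of -1.60 ± 0.72 missed the threshold (SE, edgeR adjusted p = 0.291). Cdkn1a missed it in S38D (-2.41 ± 0.86, adjusted p = 0.108) and in S38A (-1.50 ± 0.74, adjusted p = 0.227), both with edgeR. In asynchronous cells alone Ccnd2 differed between S38D and WT by -3.48 ± 1.22, also short of the threshold (SE, edgeR adjusted p = 0.122). The libraries summed to 1543353 coding reads in S38D, 1547645 in S38A and 1254508 in WT cells.

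**Figure D4:**
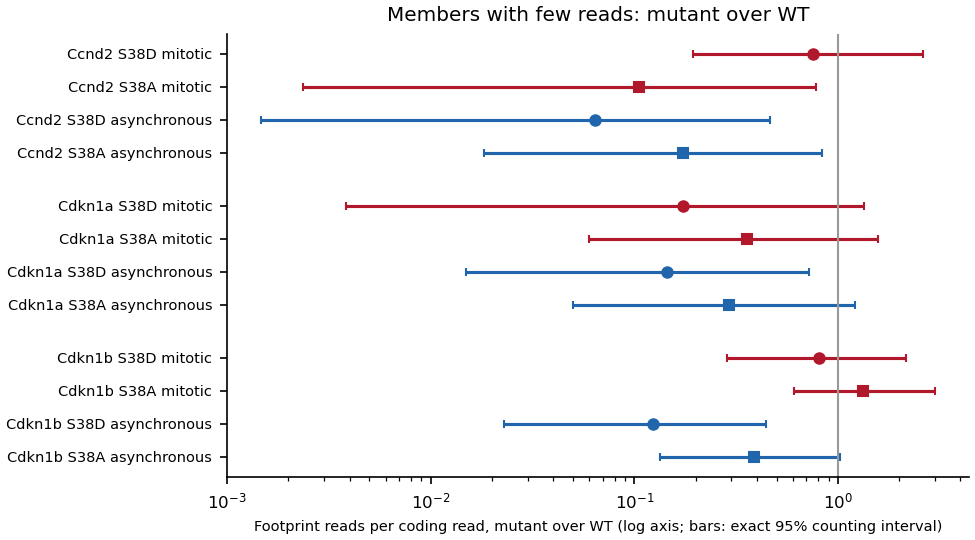
Ratio of footprint reads per coding read, mutant over WT (horizontal log axis), for Ccnd2, Cdkn1a and Cdkn1b in each state (mitotic in red, asynchronous in blue, circles for S38D and squares for S38A), with exact 95% counting intervals. Ccnd2 in asynchronous S38D cells is lowest at 0.0642, and 7 of the 12 intervals span 1, namely 1 of Ccnd2, 3 of Cdkn1a and 3 of Cdkn1b.

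Whether the change of state differed between genotypes was tested as a difference of differences. It passed for 0 of the 8 regulators in each of the 3 comparisons: S38A minus WT (0.448% of all genes called), S38D minus WT (0.0598%) and S38D minus S38A (0.239%). At an unadjusted p under 0.05 there were 0, 1 and 0 regulators, against 9.16%, 6.56% and 10.5% of all genes. The 1 was Cdkn1b, whose value is a description. DESeq2 gave 0 calls, with no adjusted p for all 8 in S38A minus WT. The lowest edgeR adjusted p was 0.583, 0.719 and 0.501 in this order, and the comparisons share libraries.

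The pattern of Cdk4 over the 12 libraries was most like that of ENSMUSG00000014907.10 among 4258 other genes with a mean of at least 50 CPM (Pearson r of log2 CPM = 0.914), and that of Cdkn1b most like ENSMUSG00000026875.14 (r = 0.951, 4259 genes). Both are the highest values found over 12 shared libraries and are given as a description. The reference tables pair 0 of these IDs with a symbol, so they are not named.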

How the data were processed

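Ribosome footprints were measured in 12 libraries, 2 in each of 6 groups. Per the submitters' processing notes, reads were processed with HTSeq 0.9.1, STAR 2.5.3a, Bowtie2 2.3.2, DESeq2 1.18.1 and bcl2fastq 2.16.0.10, on mouse build mm10. The authors deposited raw read counts per gene over coding sequence, 1 table a library, and the sources used here do not give how strand was handled. The 5 summary lines of each table were left out of library sizes. Reads in no feature were 18% to 34.6% of uniquely aligned reads and ambiguous ones 0.524% to 0.677%, and reads not aligned uniquely were 62.3% to 73% of aligned reads.

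Libraries held 258354 to 505500 coding reads, so 3 reads, the limit that a count of 0 allows, were 5.93 to 11.6 per 1e6 coding reads. Counts were tested with edgeR 4.0.16 in R 4.3.3 (TMM, filterByExpr with a minimum count of 10, quasi-likelihood F test, Benjamini-Hochberg over 6692 genes, threshold 0.05). A model of the 6 groups gave comparisons within a state or genotype, and a model of genotype plus state gave averages. The scripts were tested on simulated data. DESeq2 1.42.0, other scalings and filters, a replicate block and fits without each library were the alternatives. Same-numbered libraries deviated together in 0 of 15 pairs of groups at r over 0.1, so numbers were not taken to pair libraries. The r values ran from -0.232 to 0.0918, and the source of the negative ones was not tested. Counting ratios have exact binomial 95% intervals.

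The genes and lists were chosen with earlier results of these data known. All 10 genes are named whatever their values. Genes of like pattern were sought for the gene of highest mean level and that of largest averaged change of state. The reference tables pair 0 Ensembl IDs with symbols, so a wider pathway list and the markers of B cells and other cells were not analysed here, nor was the mutated gene.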

Additional observations from a re-analysis of the deposited data

How the results depend on the processing

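Of 301 fits of 47 single values under another setting, 296 kept the direction and the side of the threshold, as did 278 of 304 fits without 1 library. The number of regulators called was 0 in asynchronous S38D minus WT cells when only the groups compared were fitted. In S38A minus WT over both states it was 2 without the filter (Ccnd2 and Ccne1) and 0 with DESeq2, and in S38D minus WT over both states it was 0 with DESeq2. Without 1 library these counts ranged from 0 to 1, as did that for the averaged change of state, and the count for S38D minus S38A over both states was 1 in each. The other counts of regulators called kept 0 in every fit. DESeq2 gave no adjusted p for Cdkn1b in asynchronous S38D minus WT cells. The change of Cdk6 in WT cells, at 0.00 (just below 0), was 0.00 (just above 0) without the filter and 0.05 with the replicate block, and -0.76 to 1.20 without 1 library. The cause of these differences was not tested. Across fits without 1 library, signs also turned for E2f1 averaged over genotypes (-0.43 to 0.13), Cdkn1b in WT cells (-1.04 to 0.54), Ccne2 and Cdk6 in S38A cells (-0.56 to 0.41 and -0.52 to 1.56), Cdkn1b in mitotic S38A and S38D minus WT cells (-0.10 to 0.85 and -0.58 to 0.04), and Cdkn1b and Cdk4 in S38A minus WT over both states (-0.69 to 0.32 and 0.00 to 0.14).

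With the replicate number as a block (replicate block), Cdkn1b in asynchronous S38D minus WT cells was -2.79 (edgeR adjusted p = 0.0463), Ccne1 over both states was 0.97 for S38D and 0.80 for S38A (0.0289 and 0.0375), and Ccnd3 was 0.80 for S38D minus S38A (0.0111). It changed no call of a regulator. Counts over all genes also moved by over 1.5 times. With DESeq2 they were 749 against 1435 for the change of state in S38D, 565 against 1246 in S38A and 608 against 1231 in WT cells. Between genotypes DESeq2 gave 66 against 223 (S38D minus WT), 238 against 624 (S38A minus WT) and 152 against 583 (S38D minus S38A) in asynchronous cells, and 58 against 122, 350 against 885 and 361 against 864 in mitotic cells. Over both states it gave 174 against 319, 749 against 1207 and 752 against 1198 in the same order. For the differences of differences it gave 2 against 4 (S38D minus WT) and 3 against 16 (S38D minus S38A). With only the groups compared, S38D minus WT gave 103 in asynchronous and 233 in mitotic cells. Without the filter the differences of differences gave 7 for S38D minus WT and 38 for S38D minus S38A. Without 1 library, the count for mitotic S38D minus WT fell. For the difference of differences of S38D minus WT it fell or rose with the library left out. Low read numbers limit Ccnd2, Cdkn1a, Cdkn1b, Cdk6, Rb1 and E2f1.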
